A study of Homo sapiens with 6 samples.

Results

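Long non-coding RNAs made up 101 of the 674 genes that the authors listed as common to their comparisons of parental K562 cells with imatinib-resistant K562 lines. Members were the listed genes whose Ensembl identifier had a GENCODE release 29 gene type of lincRNA (69), antisense (27), processed_transcript (4) or sense_overlapping (1), after 6 genes at the THRB, TRPM2 and TSPEAR loci had been set aside. K562 is an established line of human chronic myeloid leukaemia cells, and imatinib inhibits its BCR-ABL1 fusion kinase. RNA was sequenced in 6 libraries, 2 each from the imatinib-sensitive parent (WT) and the resistant lines IR1 and IR2. Each resistant line was grown with the drug throughout, so resistance and drug exposure cannot be told apart. The libraries of a group are an original and a repeat, not stated to be separate cultures, and each line is a single line.

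The deposited values are the authors' log2 fold changes in 2 columns, with no error, p-value, level or value per library, so replicate spread is unknown and no test was possible. In bulk RNA, fewer cells of a type and less RNA per cell cannot be told apart. The header gives neither the resistant line behind a column nor the group in the numerator, and genes are therefore called positive or negative, in a first and a second column. Both columns share the WT libraries. Of the erythroid genes that mark K562 cells, the globin genes HBE1 and HBA2 were listed, both negative, and of 7 markers of lymphocytes, fibroblasts and epithelium only the collagen gene COL1A1 was; whether other cells had a part in any value was not tested.

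Long non-coding RNAs are transcripts without a long reading frame. Some lie between coding genes. Others run antisense to a coding gene, inside it or from a start beside its own, and several of these act on the neighbouring gene, while for many no function is known. Transcripts that start back to back with a coding gene often come from one promoter region that works in both directions.

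The promoter windows shown here belong to 5 of the 8 members whose annotated start lies within 2 kb of that of a listed coding gene on the other strand, plus LINC01091, the member with the highest mean fold among those with a gene symbol. They are RefSeq windows on GRCh38.p14, from 250 bases before the start to 50 after it, written 5′ to 3′ in the direction of the long non-coding RNA. Capitals mark matches to 6 short motifs searched on both strands. They were TATAAA for the TATA box, AGATAA for factors of the GATA family, TTCNNNGAA for STAT factors, TGACTCA for the AP-1 dimer, CCAAT for the box of that name and GGGCGG for the GC box. Windows of AC008969.1 and RAET1E-AS1, each with 1 GC box, are not printed, and TLR8-AS1 had no window. OSMR-DT and MNX1-AS1 are given first because their windows also hold the annotated start of the coding partner.
OSMR-DT, chr5:38845780-38846079, minus strand: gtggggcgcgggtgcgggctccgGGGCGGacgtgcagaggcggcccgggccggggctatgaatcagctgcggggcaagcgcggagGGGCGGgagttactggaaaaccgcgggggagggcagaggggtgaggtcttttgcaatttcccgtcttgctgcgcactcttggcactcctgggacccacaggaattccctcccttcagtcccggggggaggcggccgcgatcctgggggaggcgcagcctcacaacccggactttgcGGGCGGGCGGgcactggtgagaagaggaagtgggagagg
MNX1-AS1, chr7:157010607-157010906, plus strand: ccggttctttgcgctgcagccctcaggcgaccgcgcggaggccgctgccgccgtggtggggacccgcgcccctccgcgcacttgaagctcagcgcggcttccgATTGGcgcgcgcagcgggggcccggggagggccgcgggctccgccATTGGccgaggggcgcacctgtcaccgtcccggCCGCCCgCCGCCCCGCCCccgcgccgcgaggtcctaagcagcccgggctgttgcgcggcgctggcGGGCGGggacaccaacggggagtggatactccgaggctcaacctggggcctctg
GATA6-AS1, chr18:22168919-22169218, minus strand: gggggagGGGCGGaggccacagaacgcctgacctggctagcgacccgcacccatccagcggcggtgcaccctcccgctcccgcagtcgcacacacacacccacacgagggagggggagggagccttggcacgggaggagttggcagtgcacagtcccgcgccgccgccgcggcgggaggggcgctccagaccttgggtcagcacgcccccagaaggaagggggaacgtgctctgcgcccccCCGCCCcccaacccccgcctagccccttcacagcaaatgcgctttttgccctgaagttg
ZNF667-AS1, chr19:56477624-56477923, plus strand: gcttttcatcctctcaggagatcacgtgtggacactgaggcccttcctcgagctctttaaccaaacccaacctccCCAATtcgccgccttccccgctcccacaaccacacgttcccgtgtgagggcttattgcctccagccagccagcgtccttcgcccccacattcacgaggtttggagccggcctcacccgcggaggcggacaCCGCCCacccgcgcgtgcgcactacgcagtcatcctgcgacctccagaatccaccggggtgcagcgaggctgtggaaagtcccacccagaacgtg
DENND5B-AS1, chr12:31589673-31589972, plus strand: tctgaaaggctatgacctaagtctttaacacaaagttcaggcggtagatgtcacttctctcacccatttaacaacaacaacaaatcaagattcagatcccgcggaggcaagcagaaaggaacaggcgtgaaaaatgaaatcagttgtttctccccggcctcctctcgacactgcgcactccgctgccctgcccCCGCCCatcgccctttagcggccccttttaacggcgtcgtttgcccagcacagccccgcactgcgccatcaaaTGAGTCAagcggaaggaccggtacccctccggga
LINC01091, chr4:123649741-123650040, plus strand: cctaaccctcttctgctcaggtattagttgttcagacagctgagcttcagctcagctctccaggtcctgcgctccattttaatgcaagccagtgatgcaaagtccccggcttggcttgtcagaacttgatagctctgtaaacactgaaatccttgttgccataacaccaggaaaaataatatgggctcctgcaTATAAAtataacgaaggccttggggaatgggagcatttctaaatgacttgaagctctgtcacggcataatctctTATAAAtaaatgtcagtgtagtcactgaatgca

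The OSMR-DT window held 4 GC boxes, a pair of them overlapping, and 26 CpG dinucleotides. In the MNX1-AS1 window there were 4 GC boxes, a pair of them again overlapping, 2 CCAAT boxes and 44 CpG dinucleotides. GATA6-AS1 had 2 GC boxes, ZNF667-AS1 a CCAAT box and a GC box, and DENND5B-AS1 a GC box and an AP-1 match. LINC01091 differed from these: its window held 2 TATA boxes, no GC box and 4 CpG dinucleotides. The RefSeq start lay 909 bases from the GENCODE gene start for GATA6-AS1, 623 for ZNF667-AS1 and 277 for LINC01091, and at most 51 for the others shown.

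A RefSeq window at the gene was found for 43 of the 101 members. The GC box was present in 22 of these (51.2%), against 44.6% of 27305 windows of the table, 25.3% of the 11462 windows of long non-coding RNAs and 58.5% of the 15843 windows of coding genes. The ratio of observed to expected CpG was over 0.6 in 22 member windows (51.2%), against 25.7% of long non-coding and 65.7% of coding windows. On both measures the members lay between the non-coding and the coding windows of the table. A member's window was the one nearest its GENCODE start, while any other gene was given its first window. Some member windows belong to starts within 2 kb of that of a listed coding gene. The part of either in this order was not tested. TATA boxes were held by 4 member windows (9.30%, against 12.0% of all and 15.2% of long non-coding windows). In the same order, CCAAT boxes were held by 17 (39.5%, against 35.7% and 34.8%) and GATA matches by 3 (6.98%, against 10.5% and 14.5%). STAT matches were found in 5 (11.6%, against 7.88% and 9.14%) and AP-1 matches in 3 (6.98%, against 4.92% and 6.67%). A match is a run of letters, not a site shown to be bound.

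Most members carried positive folds. In the authors' deposited table, 80 of 101 members were positive (79.2%, against 74.3% of listed genes) and 21 negative (against 25.7% of listed genes). No member had opposite signs in the 2 columns, and neither did any other listed gene. Of all 674, 501 were positive in both columns and 173 negative in both. Of the 480 protein-coding genes, 73.3% were positive. The positive share of the members was therefore near that of the table as a whole. All listed genes lay beyond 1.5 on the log2 scale, in either direction and in each column, so genes outside that limit are not in hand. The member nearest to it was the intergenic AC005845.1, with 1.51 in the first column of the authors' table.

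**Figure D1:**
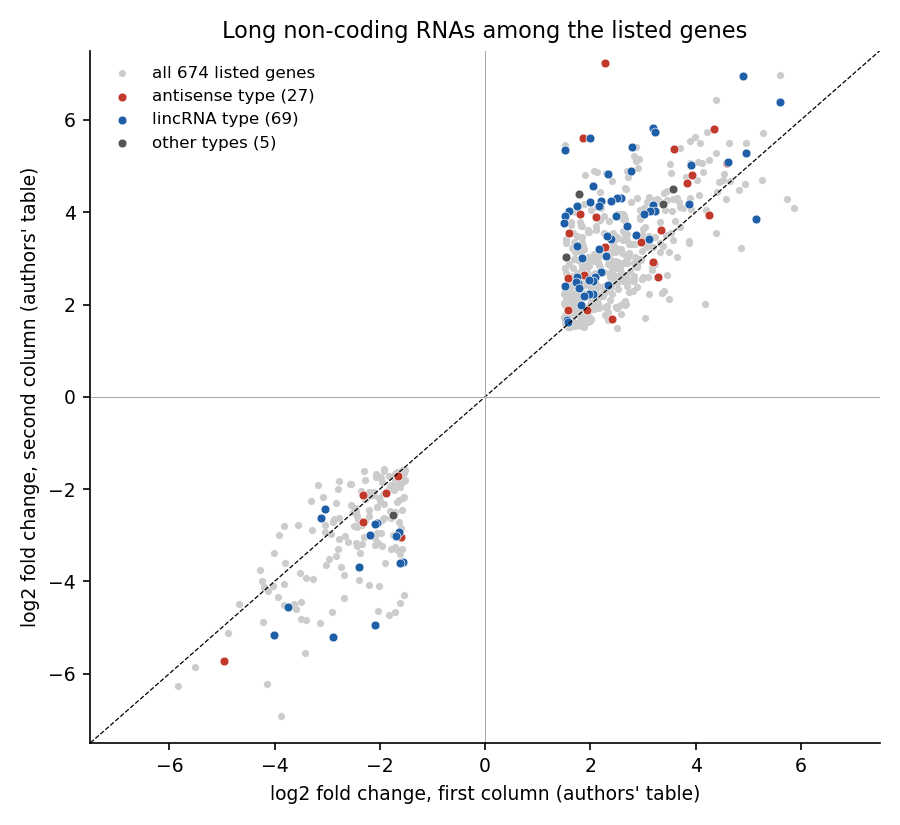
Each point is a gene, placed by the authors' log2 fold change in the first column (x axis) and in the second column (y axis), with members coloured by GENCODE type, other listed genes in grey and a dashed line where both are equal. All 101 members, like all other listed genes, sit in the quadrants of equal sign. Of the members, 92 lie farther from 0 in the second column than in the first.

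Member folds had a median near that of the coding genes in the first column and above it in the second. Positive members had a median log2 fold change of 2.29 in the first column of the authors' table (quartiles 1.84 and 3.20, 4.89-fold), beside 2.26 for positive coding genes. In the second, the authors' deposited table gave medians of 3.90 (14.9-fold) for positive members and 2.69 (6.43-fold) for positive coding genes. Negative members stood at medians of -2.09 and -3.00 in the authors' deposited table, and negative coding genes at -2.28 and -2.68. A fold of 16 or more in either direction was held by 10 members in the first column (9.90%, against 7.57% of listed genes) and by 40 in the second (39.6%, against 22.0%), and pseudogenes reached 8.70% and 44.9%. No error attaches to these folds and no difference between gene types was tested.

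LINC01091, an intergenic RNA of chromosome 4 with no coding gene within 100 kb, stood at 5.61 and 6.39, as log2 folds in the authors' deposited table. For LINC02434, likewise on chromosome 4, the authors' deposited table gave 4.90 and 6.94. The coding gene nearest to LINC02434 is TRIML1, 12322 bases away and not listed. The listed pluripotency gene ZFP42 lies 155015 bases away, beyond the 100 kb limit used here for neighbours. LINC01257 (4.95 and 5.29 in the authors' deposited table) lies 23542 bases from ADGRD1, an adhesion G protein-coupled receptor gene. These were the highest 3 means of members with a symbol, and each was above 16-fold in both columns. TDRG1, a transcript first described in testis development, stood at 4.61 and 5.07, and LINC00861 at 4.61 and 5.09, by the authors' deposited table. Among the 10 highest means of members with a symbol, LINC01404 (3.20 and 5.84), LINC02972 (5.14 and 3.86), ZNF667-AS1 (3.91 and 5.03), HMGA2-AS1 (3.94 and 4.81) and SCIRT (3.84 and 4.63) followed, as log2 fold changes of the authors' table. SCIRT is known from breast tumour-initiating cells, and HMGA2-AS1 runs antisense to the chromatin protein gene HMGA2, which was not among the listed genes.

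At the negative end stood EGFLAM-AS4, antisense to the matrix protein gene EGFLAM, at -4.96 and -5.72 (31.2-fold and 52.7-fold in size), as log2 folds in the authors' deposited table. No other negative member counted as having a symbol reached 16-fold in either column. Of the rest, AF127936.1 did so in both columns, and AF127936.2, AC078845.1 and MGC12916 in the second. MGC12916 was counted with the clone names. The next with a symbol were LINC02900 (-3.12 and -2.63), LINC01192 (-2.20 and -3.00) and MNX1-AS1 (-1.56 and -3.58) in the authors' deposited table. LINC00261, known from endoderm, where it lies beside the FOXA2 gene, was at -1.63 and -2.94 by the authors' deposited table. With ADIRF-AS1 it was one of 2 listed members from a list of 49 names of well-known long non-coding RNAs. Only 9 of the 55 members with a symbol were negative, the rest of them being LINC02820 (-1.69 and -3.02), DENND5B-AS1 (-2.32 and -2.12), RAET1E-AS1 (-1.89 and -2.09) and COL18A1-AS2 (-1.66 and -1.71) in the authors' deposited table. Clone names, with MGC12916 counted among them, were held by 46 members, and 12 of these were negative.

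**Figure D2:**
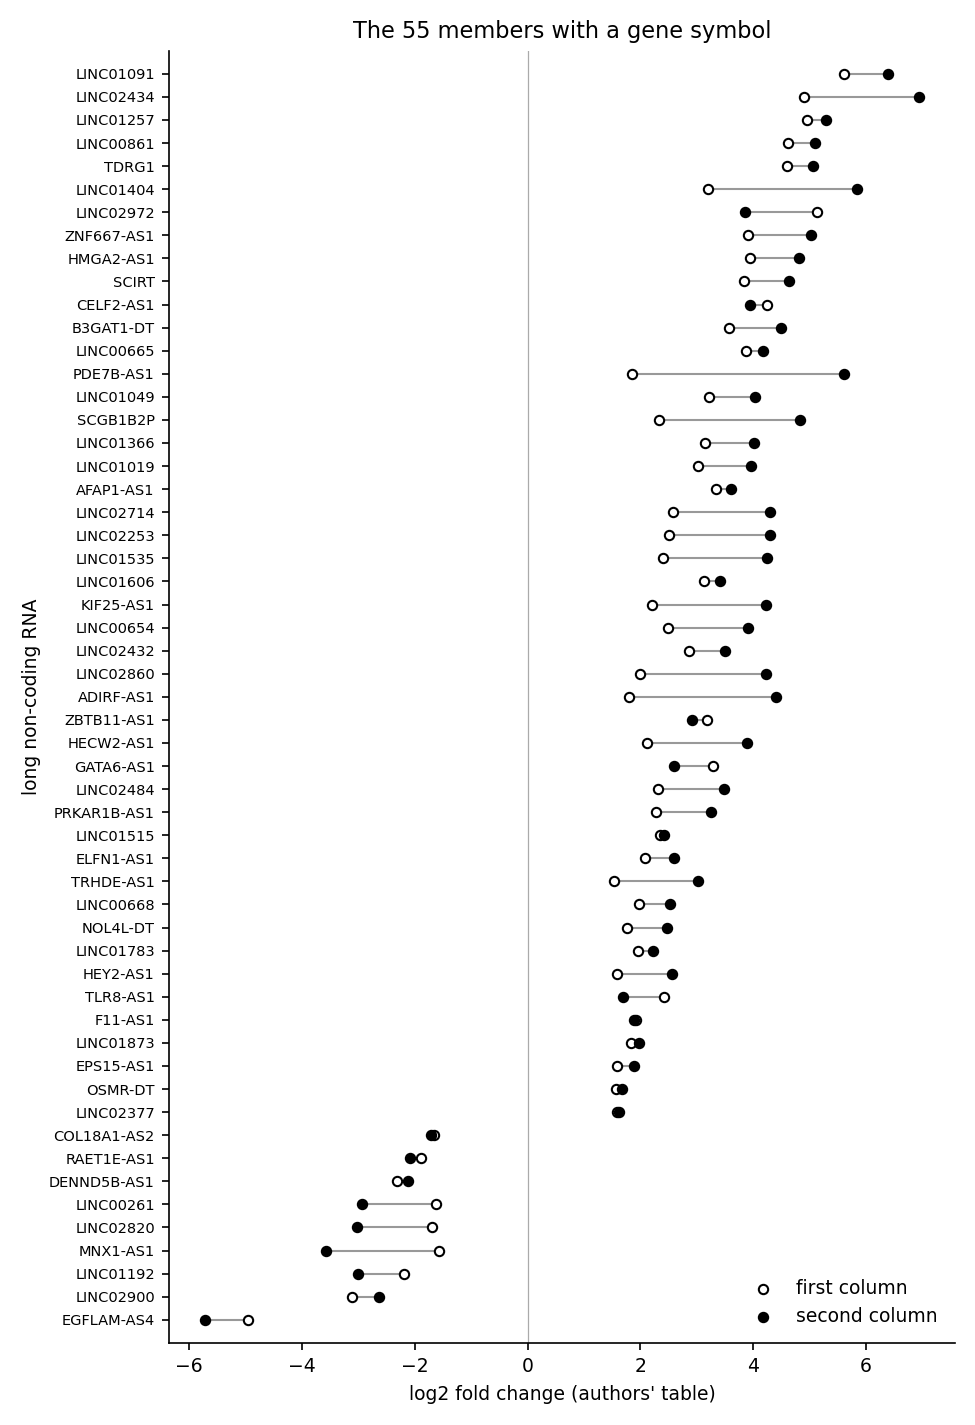
The x axis gives the authors' log2 fold change of the 55 members with a gene symbol (y axis, ordered by the mean of both columns), with open circles for the first and filled circles for the second column. LINC01091 and LINC02434 are at the top, EGFLAM-AS4 is at the bottom with -4.96 and -5.72, and PDE7B-AS1 spans the widest interval of the plot.

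Members were on 21 chromosomes. All 11 on chromosome 4 were positive by the authors' deposited table, where 74.5% of all genes listed on that chromosome were. All 7 on chromosome 19 were positive too, beside 97.3% of the genes listed there. The positive members were 8 of 11 on chromosome 12 (64.5% of genes listed there) and 8 of 10 on chromosome 6 (75.6%). On chromosome 21, 1 of 4 members was positive (61.5% of genes listed there). The long non-coding RNAs set aside at the TRPM2 and TSPEAR loci are also on chromosome 21 and were all positive. They still count among the genes listed there, so the low share of members depends on leaving them out. Chromosome 19 held 75 listed genes, of which the members were 9.33%, and chromosome 12 held 31, of which they were 35.5%.

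Members of the antisense and lincRNA types were alike in the share of positive signs. Of the 27 antisense members 21 were positive (77.8%), and of the 69 lincRNA members 55 (79.7%). Positive antisense members had medians of 2.41 and 3.62, and positive lincRNA members of 2.21 and 3.91, as log2 fold changes of the authors' table. By position, 33 members overlapped a coding gene on the other strand, 4 of them of the lincRNA type, and 3 overlapped one on the same strand only. Another 10 lay within 10 kb of the nearest coding gene, 32 between 10 and 100 kb and 23 farther away. In that order of position, 81.8%, 33.3%, 80.0%, 90.6% and 65.2% were positive. Among 14959 annotated long non-coding RNAs of the same types, the share with an opposite-strand overlap was 39.3%, against 32.7% of members, and the share at 10 to 100 kb was 19.3%, against 31.7%. The longest annotated transcript of a member had a median length of 1602 nucleotides (quartiles 735 and 2468), against 688 for all annotated ones (quartiles 494 and 1556). Longer transcripts collect more reads, and the part of length in the listing was not tested.

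Of the members, 32 (31.7%) had a listed protein-coding gene overlapping them or within 100 kb. The same held for 5.96% of all annotated long non-coding RNAs and for 25.8% of the listed coding genes, each counted against the other listed coding genes. Overlap itself was seen for 14 members (13.9%), against 1.89% of all annotated long non-coding RNAs and 6.46% of listed coding genes. Of all 19922 annotated coding genes, 0.91% overlapped a listed coding gene and 7.52% had one within 100 kb. The share of members and that of listed coding genes thus have different baselines, and overlap is more common for annotated long non-coding RNAs. The 32 members formed 44 pairs with 42 coding genes, and all 44 pairs had the same sign in the authors' deposited table. Outside chromosome 19, 30 of 30 did. Pairs of listed coding genes within 100 kb had the same sign in 97 of 98 cases, so agreement in sign was as common between coding neighbours. From 100 kb to 1 Mb, 58 of 68 member pairs (85.3%) and 219 of 249 coding pairs (88.0%) had the same sign, and without chromosome 19 the shares were 68.8% and 67.8%.

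**Figure D3:**
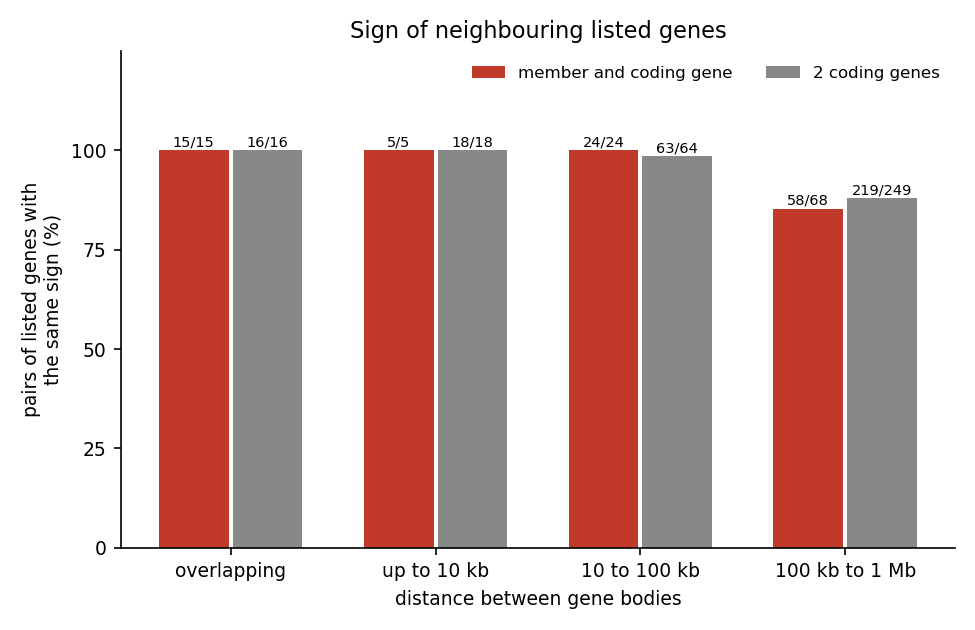
Bars give the percentage (y axis, from 0) of pairs of listed genes with the same sign, for a member and a coding gene (red) or 2 coding genes (grey), by the distance between gene bodies (x axis), with the number of pairs above each bar. Member pairs are at 100% up to 100 kb and at 85.3% from 100 kb to 1 Mb.

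Of the transcripts that start beside their coding partner, OSMR-DT, RAET1E-AS1 and TLR8-AS1 had folds close to those of the partner. GATA6-AS1 and DENND5B-AS1 stood farther from theirs. OSMR-DT and OSMR, the oncostatin M receptor gene, start 29 bases apart on opposite strands with folds of 1.56 and 1.67 against 1.64 and 1.70 in the authors' deposited table. GATA6-AS1 and the transcription factor gene GATA6 start 435 bases apart, with 3.29 and 2.59 against 2.73 and 2.28 in the authors' deposited table. Both of that pair were lower in the second column, the less common order among members. For RAET1E-AS1 and LRP11, a receptor-related gene that overlaps it and starts 532 bases from its start, the authors' deposited table gave -1.89 and -2.09 against -2.15 and -2.13. ULBP2, a ligand of the NKG2D receptor and 22493 bases from RAET1E-AS1, was also negative, at -2.93 and -2.98 in the authors' deposited table. DENND5B-AS1 stood at -2.32 and -2.12 against -3.05 and -2.77 for DENND5B, an exchange factor gene for Rab proteins, in the authors' deposited table. TLR8-AS1 was at 2.41 and 1.69 and TLR8, an endosomal receptor for single-stranded RNA, at 2.27 and 1.94 in the authors' deposited table.

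MNX1-AS1 and the homeobox gene MNX1, with starts 154 bases apart, were apart in one column and close in the other: -1.56 against -2.97, then -3.58 against -3.51, in the authors' deposited table. For ZNF667-AS1 and AC008969.1, which overlap zinc finger genes on chromosome 19, the fold was larger than that of the partner in both columns. ZNF667-AS1 had 3.91 and 5.03 against 2.12 and 4.12 for ZNF667, and AC008969.1 had 3.38 and 4.18 against 2.72 and 3.02 for ZNF606, in the authors' deposited table. Over the 8 members whose nearest listed coding gene started within 2 kb on the other strand, the median absolute difference of the pair in the authors' deposited table was 0.61 on the log2 scale for the first column and 0.28 for the second. For the other 24 members with a listed coding neighbour, it was 0.55 and 0.78 in the authors' deposited table. Closeness of the starts thus went with closer folds in the second column alone, as a description of 8 and 24 pairs.

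Other antisense members lay inside a coding gene or overlapped its end. AFAP1-AS1, reported at raised levels in several carcinomas, had 3.34 and 3.62 against 2.49 and 3.22 for the actin-filament-associated protein gene AFAP1 in the authors' deposited table. CELF2-AS1 and the splicing factor gene CELF2 stood at 4.25 and 3.95 against 4.38 and 3.55 in the authors' deposited table, with no overlap of exons. SCIRT overlaps LINC03040, typed as protein-coding by GENCODE, which had 1.81 and 3.71 in the authors' deposited table. The widest gap of any member was that of AC104126.1, antisense within the FERM-domain protein gene EPB41L4A: 2.28 and 7.24 (4.86-fold and 151-fold) against 4.83 and 4.47 in the authors' deposited table. That gene pair shares no exonic bases, while exons overlapped by 81 to 790 bases in 10 of the 15 overlapping pairs of a member and a listed coding gene. Whether the authors counted reads by strand is not stated in the sources at hand. Where strand was not used, reads from 2 overlapping genes cannot be told apart, and the values of those 10 pairs are uncertain for that reason.

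AC078993.1 overlaps 2 listed genes on chromosome X, GRPR, the receptor for gastrin-releasing peptide, and the cancer-testis gene MAGEB17. The member shares exonic bases with both, and the 3 stood at 2.97 and 3.36, 3.12 and 3.47, and 2.99 and 3.41 in that order, in the authors' deposited table. MGC12916 overlaps the heparan sulfate sulfotransferase gene HS3ST3B1 on the same strand, with no shared exonic bases. It had -2.08 and -4.94 against -2.03 and -4.64 in the authors' deposited table, and whether the 2 genes share reads was not tested. AC138819.1 and FAM153A, at its tail, gave 1.80 and 3.95 against 1.66 and 3.22, and AC066613.1 within DMXL2 -1.60 and -3.04 against -2.87 and -2.66, in the authors' deposited table.

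**Figure D4:**
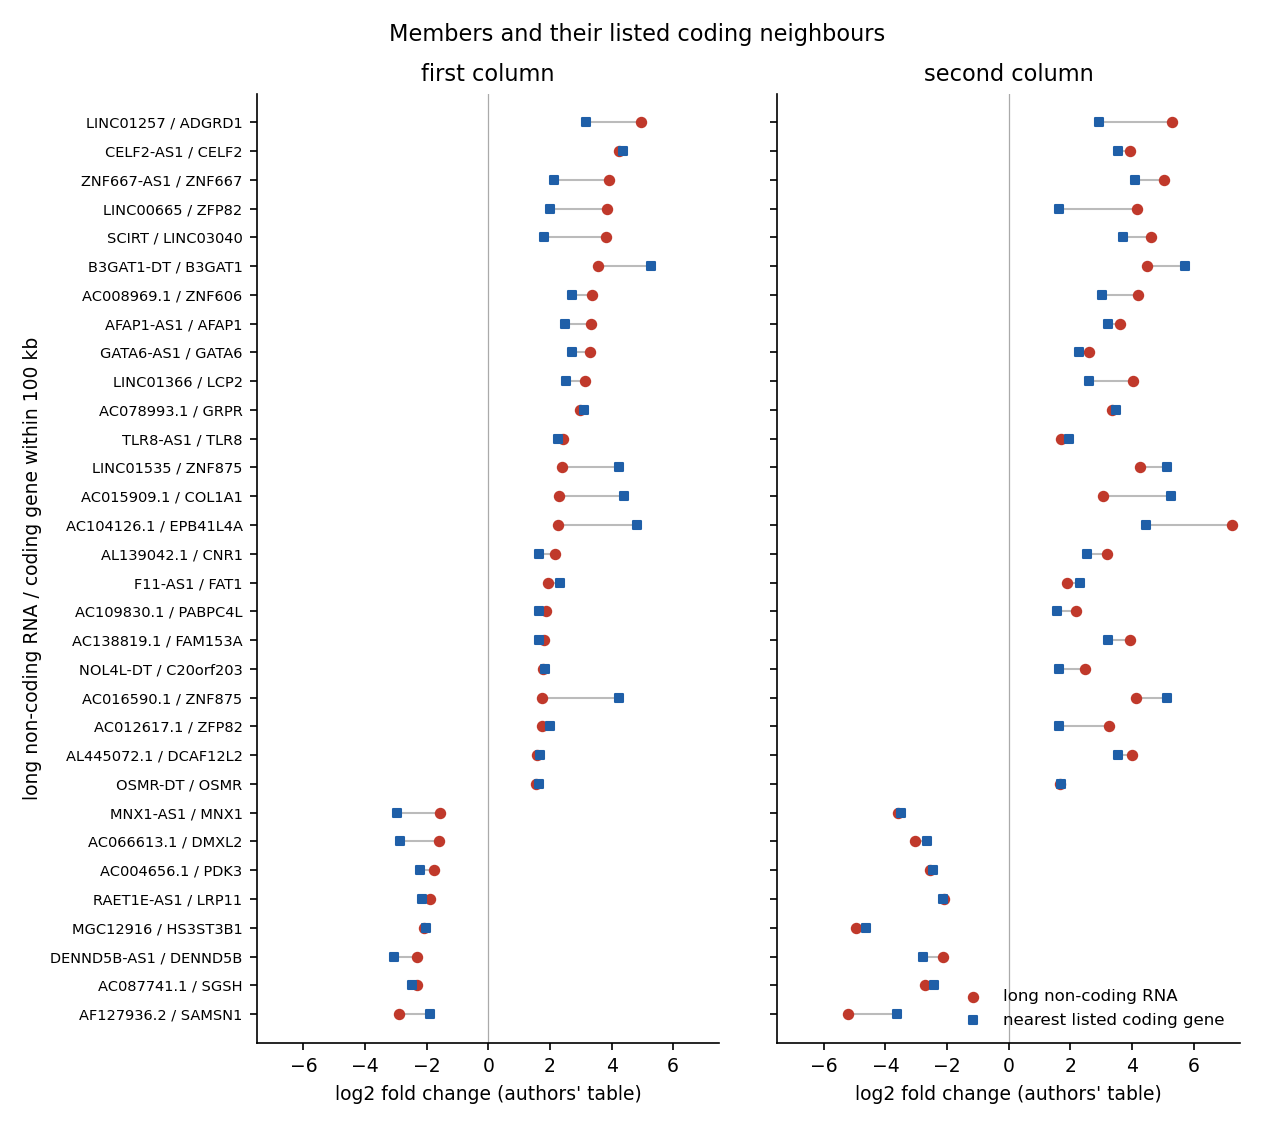
For the 32 members with a listed coding gene within 100 kb (y axis, member and nearest such gene), the x axis gives the authors' log2 fold change of the member (red circle) and of the gene (blue square), with one panel per column. The 24 positive and 8 negative pairs each stay on one side of 0, and AC104126.1 at 7.24 is the farthest point to the right.

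Neighbours that did not overlap included well-known coding genes. AC015909.1 (2.30 and 3.05) lies 7312 bases from the collagen gene COL1A1, which had 4.39 and 5.27 in the authors' deposited table. B3GAT1-DT (3.56 and 4.50) lies 24555 bases from B3GAT1, the enzyme gene for the CD57 epitope (5.28 and 5.72 in the authors' deposited table). AL139042.1 (2.16 and 3.20) stands near CNR1, a cannabinoid receptor gene (1.66 and 2.54), and LINC01366 (3.14 and 4.02) near LCP2, the gene of the adaptor SLP-76 (2.53 and 2.61), in the authors' deposited table. On the negative side, AC004656.1 (-1.75 and -2.57) was next to PDK3, a pyruvate dehydrogenase kinase gene (-2.21 and -2.44), in the authors' deposited table. AC087741.1 (-2.32 and -2.70) was next to SGSH, a lysosomal sulfatase gene (-2.46 and -2.42), in the authors' deposited table. F11-AS1 overlaps the clotting factor gene F11, which was not listed, on the other strand and lies 86786 bases from the cadherin gene FAT1 (2.32 and 2.33 against 1.93 and 1.88 in the authors' deposited table).

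On chromosome 19, LINC00665 (3.87 and 4.17) and AC012617.1 (1.74 and 3.26) end 399 bases apart, and both have the zinc finger gene ZFP82 (1.99 and 1.64) as nearest listed coding gene, in the authors' deposited table. LINC01535 (2.40 and 4.25) and AC016590.1 (1.75 and 4.13) end 404 bases apart, near ZNF875 (4.25 and 5.14 in the authors' deposited table). In all, 12 members formed 6 pairs within 100 kb of each other, and every one of the 6 had the same sign. A chromosome 21 group joined AF127936.1 (-4.01 and -5.16), AF127936.2 (-2.89 and -5.20), the pseudogene POLR2CP1 (-2.91 and -4.66) and SAMSN1, an adaptor gene of blood cells (-1.90 and -3.61), in the authors' deposited table. On chromosome 14, AL133467.2 (2.77 and 4.90) and AL133467.4 (1.99 and 5.61) lie 1223 bases apart on the same strand in the authors' deposited table, and whether they share reads was not tested. Pseudogenes were neighbours of 8 members in 10 pairs, again of equal sign, such as LINC00861 and SOD1P3 (4.45 and 4.66 in the authors' deposited table). For 58 members no listed gene lay within 100 kb.

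Of the 33 members that overlap a coding gene on the other strand, 13 had such a gene in the table and 20 did not. The 20 included transcripts antisense to the transporter gene SLCO2B1 (AP001972.4, 4.35 and 5.81) and to the phosphodiesterase gene PDE7B (PDE7B-AS1, 1.86 and 5.60) in the authors' deposited table. ZBTB11-AS1 (3.19 and 2.92), HECW2-AS1 (2.12 and 3.89), KIF25-AS1 (2.21 and 4.23) and PRKAR1B-AS1 (2.28 and 3.26) were others in the authors' deposited table. HEY2-AS1 (1.58 and 2.57), TRHDE-AS1 (1.54 and 3.03), ELFN1-AS1 (2.09 and 2.60) and EPS15-AS1 (1.58 and 1.89) were also antisense to unlisted genes, by the authors' deposited table. An unlisted coding partner did not pass the authors' selection in both comparisons or was not analysed here, which does not show that its level was the same. Positive members with a listed overlapping partner had a median of 3.32 in the first column of the authors' table (n = 10 members), and those without one 1.93 (n = 17 members). In the second, the medians of the authors' deposited table were 3.95 and 3.26. Negative members of these kinds went the other way in size, with medians of -1.89 and -2.12 where the partner was listed (n = 3) and -2.32 and -2.70 where it was not (n = 3), by the authors' deposited table.

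Of the 101 members, 92 had the larger fold in the second column (91.1%, against 76.7% of listed genes) by the authors' deposited table. The median difference of absolute log2 fold change, second minus first, was 0.88 for members in the authors' deposited table, a 1.85-fold ratio. Coding genes had 0.31 and pseudogenes 0.94 in the authors' deposited table. For 45 members (44.6%, against 24.9% of listed genes) the second fold was over 2 times the first, and for 1, LINC02972, the reverse held. The median was 1.01 for lincRNA and 0.75 for antisense members in the authors' deposited table, and 1.15 for clone-named members against 0.78 for those with a symbol. Of the 69 lincRNA members 66 were larger in the second column, and of the 27 antisense members 21.

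PDE7B-AS1 had the widest gap among members with a symbol, 48.7-fold by the second column against 3.63-fold by the first in the authors' deposited table. LINC01404, ADIRF-AS1 (1.79 and 4.40), SCGB1B2P (2.34 and 4.84) and LINC02860 (1.99 and 4.23) followed in the authors' deposited table. AP001476.3, a clone-named RNA of chromosome 21, had 1.52 and 5.34 in the authors' deposited table. MNX1-AS1, LINC02820 and LINC00261 led the negative members counted as having a symbol. Their gaps were 2.01, 1.34 and 1.31 on the log2 scale in the authors' deposited table. MGC12916, counted with the clone names, had a gap of 2.86. The members larger in the first column were LINC02972, CELF2-AS1, ZBTB11-AS1, GATA6-AS1, TLR8-AS1, F11-AS1, DENND5B-AS1, AL138720.1 and LINC02900. Among the 32 members with a listed coding neighbour, the median gap was 0.80, and 0.16 for their nearest partners, in the authors' deposited table. The member's gap was the larger of the pair in 25 of 32. That held for 16 of the 18 pairs that do not overlap, with a median difference between the gaps of 0.58. Among overlapping pairs it held for 9 of 14 (median difference 0.15). These were 5 of the 9 whose exons overlap (0.04) and 4 of the 5 whose exons do not (0.25). The wider gap of the members was thus least common in pairs whose exons overlap, as a count with no test.

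**Figure D5:**
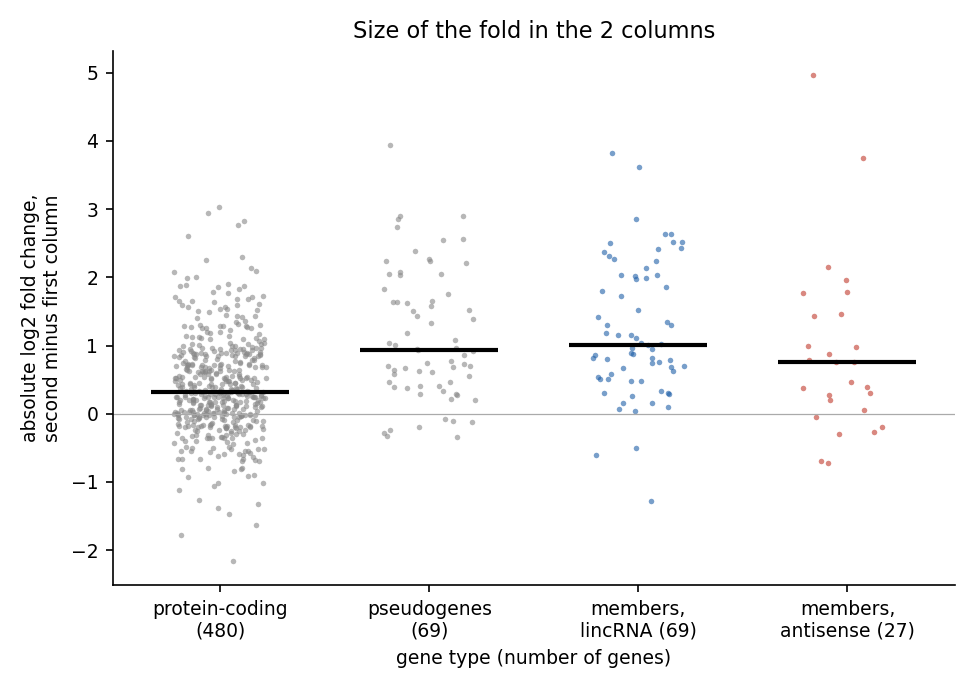
The y axis gives the absolute log2 fold change of the authors' second column minus that of the first, one point per gene, by gene type (x axis, number of genes in brackets), with a black bar at the median. Medians are 0.31 for protein-coding genes, 0.94 for pseudogenes, 1.01 for lincRNA members and 0.75 for antisense members.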

How the data were processed

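The authors deposited log2 fold changes of WT against IR1 and of WT against IR2 for the genes common to both. The submitters' processing notes name the tools DESeq2 3.5, HISAT2 2.1.0, Subread and featureCounts and the build hg19. Their roles, settings, strand and filters were not given in the sources used here, nor were counts or depths, so precision is unknown and no test over samples was possible. Leaving out replicates was not possible either. Gene types, strands, overlaps and distances came from GENCODE release 29 (GRCh38), which held 657 of 674 identifiers, and the gene name table held 654. That build is not the authors', so GENCODE gave no printed coordinates. RefSeq promoter windows were matched by symbol or Entrez identifier. Counts and medians were computed in Python 3.11.15 with pandas 2.3.3 and the geometry was tested on toy intervals with known answers.

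Members and lists were chosen with earlier results of these data known. Named members were those with a symbol among the 10 highest and 10 lowest means, the 5 widest gaps per sign, those with a listed coding gene within 100 kb and those of the list of known long non-coding RNAs. Clone-named members, other members and neighbours beyond 100 kb were named after their values were seen. Some items are not reported here.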

Additional observations from a re-analysis of the deposited data

How the results depend on the processing

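No paired analysis was possible because the table holds no values per library. Of 38 values under alternative settings, 31 stayed within the 95% binomial interval of the value, or within 1.5 times for a count. That interval describes spread over genes or pairs, not over libraries. A reversal could be seen only for the median gap of all members, where none occurred. Counts, shares and medians split by sign cannot change sign. With RefSeq gene types, which left 65 genes, 62 of them members, there were 55 positive and 10 negative ones. A minimum absolute log2 fold change of 2 in both columns left 50 positive and 13 negative members. Without members that overlap a coding gene, 52 were positive and 13 negative. Those settings leave fewer genes by construction. A listed coding gene within 10 kb was found for 19 members, against 32 within 100 kb. With pairs up to 1 Mb, 91.1% had the same sign, against 100% within 100 kb; 10 pairs of opposite sign lay between those limits, such as LINC01091 and FGF2. The median gap between columns ran from 0.88 to 0.98 over its alternatives, and its mean was 1.14; these included 2 chosen after seeing the data, namely leaving out members near listed coding genes and members on chromosome 19. The authors' folds of single genes do not depend on these settings. Depth was unknown, so low counts behind the large folds could not be looked for.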
